A study of Mus musculus with 7 samples.

Results

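Genes of liver glucose production and glucose sensing were examined for binding of the insulator protein CTCF and of the cohesin complex in female mouse liver. They were the enzymes Pck1, G6pc, Fbp1 and Pcx, the amino acid degrading enzyme Tat, the regulators Ppargc1a and Foxo1, the glucose transporter Slc2a2 and the glycolytic enzyme Pklr. These are 9 of 21418 autosomal protein-coding genes in the mm9 (NCBIM37) gene annotation, and they were chosen by function. Each gene span was extended by 50 kb on each side, and every peak that overlapped this window was a member, which gave 111 of 68667 CTCF peaks and 117 of 68656 Rad21 peaks. Livers came from 8-week-old female CD-1 mice, an outbred stock named Crl:CD1(ICR) in the labels. Chromatin of 4 livers was precipitated with an antibody to CTCF and chromatin of 3 livers with an antibody to Rad21, a cohesin subunit. The libraries of each antibody were pooled by the authors before peaks were called, so there was 1 list per factor, no value per mouse, no spread between mice and no test between samples. The lists give no read counts, so the depth behind a peak is unknown from them, and a region without a peak is a region where none was called. They hold no expression values either, so the labelled tissue could not be checked against marker genes, and whole liver mixes hepatocytes with other cell types whose binding cannot be told apart.

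In the fasted state the liver makes glucose from lactate, glycerol and amino acids. Pcx and Pck1 carry pyruvate to phosphoenolpyruvate, Fbp1 and G6pc remove phosphate groups near the end of the pathway, and Slc2a2 moves glucose across the hepatocyte membrane, while Pklr drives the opposite flow in the fed state. Glucagon, acting through cyclic AMP, and insulin, acting through Foxo1, set the transcription of several of these genes, with Ppargc1a as a coactivator. Cohesin is thought to extrude chromatin loops that stop at CTCF, most often where the CTCF motifs at both ends point into the loop, and cohesin is also found without CTCF at enhancers and promoters.

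A CTCF peak that shared 1 bp or more with a peak of the Rad21 list was called CAC (cohesin-and-CTCF) and any other CTCF peak Lone CTCF, and Rad21 peaks with no CTCF peak were called CNC (cohesin-non-CTCF). Peak strength is the fold enrichment, the height of the summit relative to local background reads, and it was not compared between the lists. A CTCF motif was called where a 20 bp match within 100 bp of the summit reached 13.5 bits, a score met by 1% of flanking windows. The matrix had the consensus NNGCCACNAGGGGGCGCNNN and was learned on chromosomes that hold none of the 9 genes.

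The 9 windows held 83 CAC, 28 Lone CTCF and 37 CNC peaks, and every window held all 3 classes. CAC peaks made up 74.8% of the CTCF peaks (95% Wilson interval 66.0 to 81.9%, counting error only), beside 73.8% of the autosomal list. CNC peaks made up 31.6% of the Rad21 peaks (23.9 to 40.5%), beside 26.6% of the autosomal list. The shares of both classes in the windows thus lay near those of the whole lists. The windows were richer in peaks than the window of a typical gene, with a median of 8.23 CTCF peaks and 9.14 Rad21 peaks per 100 kb over the 9 genes, against 5.26 and 4.89 over all protein-coding genes. For CNC peaks the medians were 2.34 and 0.752 per 100 kb. The windows of 57 other genes of the pathway were as rich, with medians of 9.63 CTCF and 9.92 Rad21 peaks per 100 kb. The windows also take in neighbouring genes: 15 of the 83 CAC peaks, 1 of the 28 Lone CTCF peaks and 2 of the 37 CNC peaks lay at most 1 kb from a transcription start site (TSS) of another protein-coding gene.

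**Figure D1:**
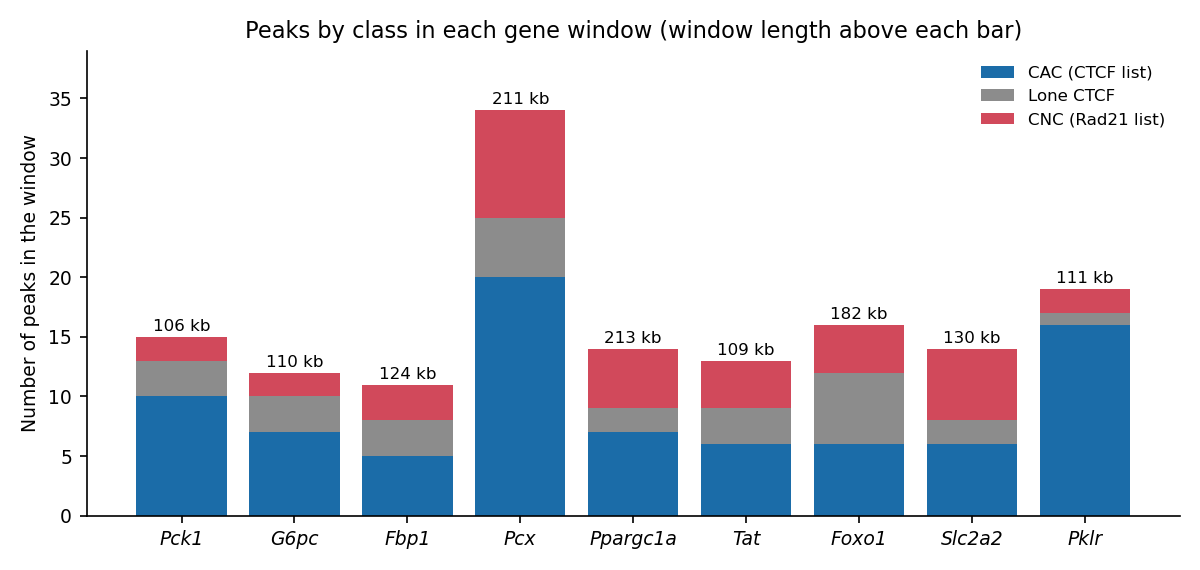
Bars show the number of peaks in each gene window, stacked by class (CAC and Lone CTCF from the CTCF list, CNC from the Rad21 list), with the window length in kb above each bar. The Pcx window held the most peaks, with 20 CAC, 5 Lone CTCF and 9 CNC peaks, while the Pklr window of 111 kb held 16 CAC peaks and 1 Lone CTCF peak.

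The CTCF motifs that flank the genes are shown first, since their direction sets the arrangement described below. For each gene they are the motifs of the nearest CAC peak on either side of the gene span that carried a motif, or, where there was none on both sides, the motif of a CAC peak inside the gene. Each is read 5′ to 3′ on the strand of the motif from the mm9 reference sequence, which is not that of CD-1 mice, with the 20 bp match in capitals and 5 bases on each side. The coordinates are those of the match.
Pck1, chr2:172933072-172933091, plus strand: aagatTAGCCACCAGAGGGTGCTACaggac
Pck1, chr2:172984985-172985004, plus strand: cattgTTACCACTAGTTGGCGCTCTttggc
G6pc, chr11:101197159-101197178, plus strand: ctgccTTCCCACTGGGGGGCGCCACcccac
G6pc, chr11:101256657-101256676, minus strand: cagatAGAACAGCAGAGGGCGCTGGgagcc
Fbp1, chr13:62956213-62956232, minus strand: tcccgTCAGCAGTAGATGGCGCTACtgggc
Fbp1, chr13:63021151-63021170, plus strand: tgtgcTAGCCACAAGGGGGCGCTCCtgggt
Pcx, chr19:4497673-4497692, plus strand: actcaCAGCCACCAGGTGGGGGTAGagcca
Pcx, chr19:4644446-4644465, plus strand: agcagAAGCCAGCAGAGGGCGTTAGatgcc
Tat, chr8:112492869-112492888, plus strand: agagcCAACCAGCAGAGGGCAGCTCaggct
Tat, chr8:112527043-112527062, minus strand: cgtggAGGCCAGCAGAGGGCGCTGGatcct
Foxo1, chr3:52066503-52066522, plus strand: ctcaaTGACCAGAAGGTGGCAGCGGatccc
Slc2a2, chr3:28645246-28645265, minus strand: caatgTTGACACCAGGGGGTGCTAGtgctt
Pklr, chr3:88904866-88904885, plus strand: acttgGCACCACCAGCGGGCACTGTgccag
Ppargc1a, chr5:51937011-51937030, plus strand: tgagtTTAACACTAGAGGGCAAAGAgtgag

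A motif-bearing CAC peak was present on both sides of 5 of the 9 genes (Pck1, G6pc, Fbp1, Pcx and Tat), beside 38.6% of all protein-coding genes. The motifs pointed towards the gene from both sides, the convergent arrangement, at 2 of the 9 genes, G6pc and Tat, beside 10.4% of all genes. No test was made of either count. At Pck1 and Pcx both of these nearest motifs lay on the plus strand, and at Fbp1 they pointed away from the gene. Only the nearest site on each side entered this call. A minus-strand motif site also lay farther downstream of Pck1, 25.1 kb past its 3′ end, with a CTCF fold enrichment of 8.05. No contact between these sites was measured in the lists. Within the windows, 32 of 83 CAC peaks carried a motif (38.6%, Wilson interval 28.8 to 49.3%), as did 10 of 28 Lone CTCF peaks (35.7%) and 1 of 37 CNC peaks (2.70%). The shares over the chromosomes not used to learn the matrix were 45.8%, 41.2% and 2.63%.

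**Figure D2:**
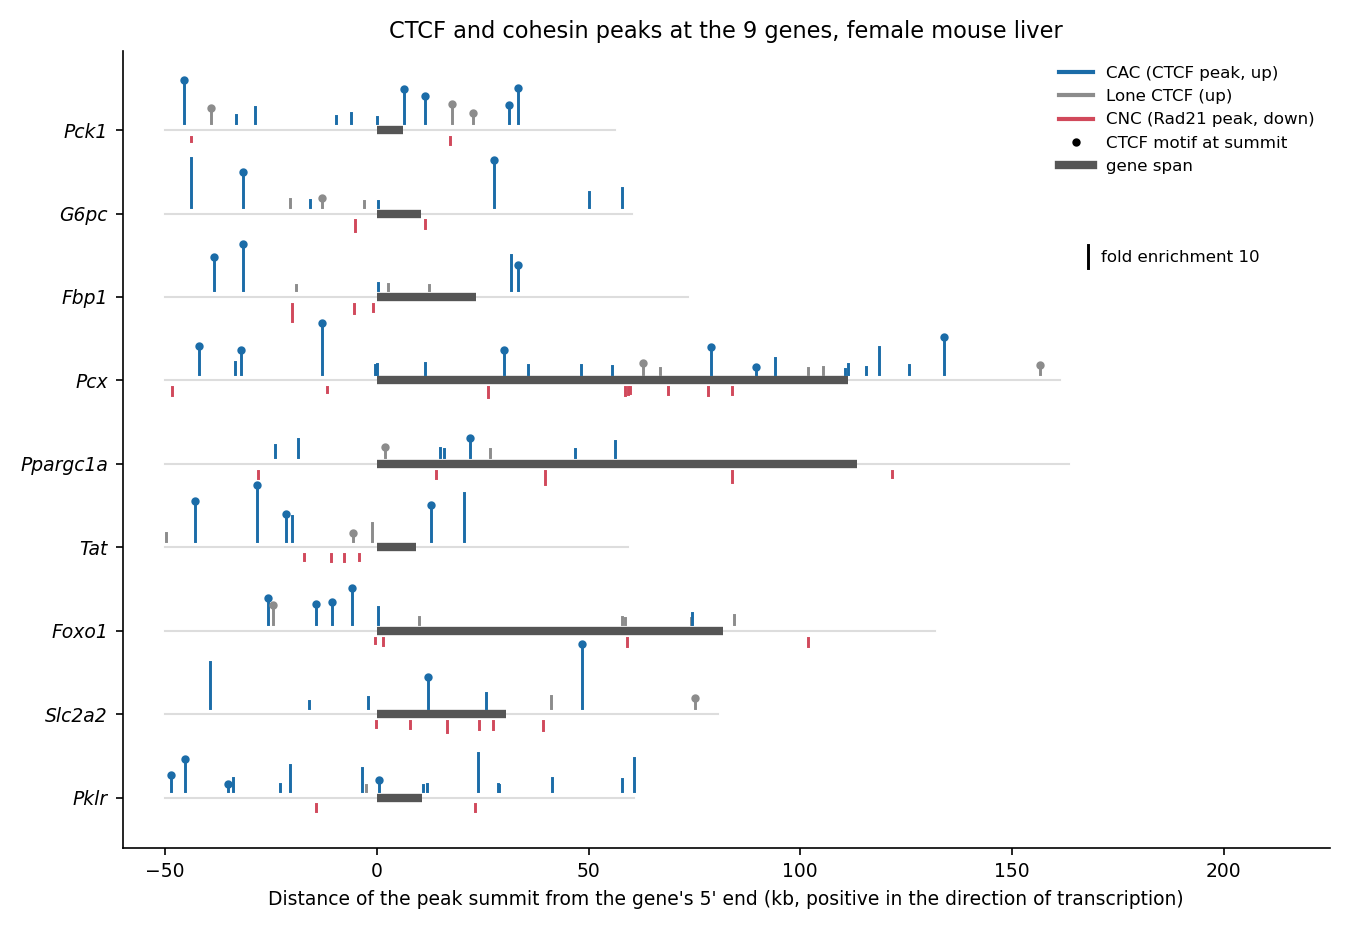
Each row is a gene, drawn from its 5′ end in the direction of transcription (kb), with the gene span in dark grey and the window in light grey. Lines up are CTCF peaks and lines down are CNC peaks, line length is fold enrichment, and dots mark CTCF peaks with a motif. The strongest CTCF peak, with a fold enrichment of 28.4, lies 48.4 kb past the 5′ end of Slc2a2, and peaks at the 5′ ends are short.

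Pck1 encodes cytosolic phosphoenolpyruvate carboxykinase, which commits oxaloacetate to glucose. The gene spans chr2:172978549-172984774 on the plus strand, and its window held 13 CTCF peaks (10 CAC and 3 Lone CTCF) and 12 Rad21 peaks, of which 2 were CNC. No summit of either list lay inside the gene span. The strongest peaks of both lists formed a CAC site 45.5 kb upstream, in an intron of Ctcfl, a germline paralogue of CTCF, with a fold enrichment of 19.3 for CTCF and 15.9 for Rad21. The next motif-bearing CAC site followed the gene closely, with its CTCF summit 211 bp past the annotated 3′ end and a fold enrichment of 15.1. Pck1 thus lay between motif sites 52.0 kb apart, and it was the only protein-coding gene whose span lay wholly between them. With the motif required within 50 bp of the summit the upstream site was lost, and under a minimum fold enrichment of 5, or with summits within 100 bp, the downstream site became the next one, with its summit at 172990053. At the start site itself the CTCF peak was among the weakest of its list, with a fold enrichment of 2.68 (percentile 3.29) and a summit 49 bp upstream. The Rad21 peak there had a fold enrichment of 5.22 and a summit 327 bp upstream, 278 bp from the CTCF summit. The CNC peak nearest to the start, with a fold enrichment of 3.06, lay 17.2 kb past it.

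Both start-site peaks overlapped the proximal promoter, which is shown because it holds a core of the cyclic AMP response element, the site of glucagon signalling, and the CTCF summit falls within it. The letters TGACG were found on the minus strand 65 to 61 bases before the start, and are capitals (as CGTCA) in the 250 bases before the start, chr2:172978299-172978548, plus strand.
Pck1 promoter: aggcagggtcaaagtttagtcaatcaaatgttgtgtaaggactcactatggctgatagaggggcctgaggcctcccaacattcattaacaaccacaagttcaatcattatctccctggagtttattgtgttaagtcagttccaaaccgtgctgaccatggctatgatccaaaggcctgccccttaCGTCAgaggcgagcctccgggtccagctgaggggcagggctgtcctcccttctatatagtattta
These 5 letters are common, being present in 23.4% of the 21418 promoters (250 bases before to 50 after the 5′ end, both strands). Among the 9 promoters they were found at Pck1 and, 49 bases before its 5′ end, at Ppargc1a. That 5′ end is not the Ppargc1a start that carried peaks, which was not searched as a promoter.

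G6pc encodes the catalytic subunit of glucose-6-phosphatase, which releases free glucose. It spans chr11:101228875-101239217 on the plus strand, and its window held 10 CTCF peaks (7 CAC and 3 Lone CTCF) and 9 Rad21 peaks (2 CNC). Upstream, a plus-strand motif marked a CAC site 31.7 kb from the start, in the coding sequence of Aoc3 (CTCF fold enrichment 15.2). Downstream, a minus-strand motif marked a CAC site 27.8 kb past the start, with a fold enrichment of 20.9 for CTCF and 23.9 for Rad21 (percentile 98.7 of the Rad21 list). These convergent motif sites lay 59.5 kb apart and enclosed G6pc as the only whole protein-coding gene. The strongest CTCF peak of the window, 43.8 kb upstream with a fold enrichment of 21.7, carried no called motif, since its best match of 13.4 bits fell just short of the threshold.

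The start of G6pc carried weak peaks of both factors. The CTCF peak had a fold enrichment of 2.69, with its summit 378 bp inside the gene in coding sequence, and the Rad21 peak had 2.95, with its summit 119 bp past the start. Their summits were 259 bp apart. A CNC peak with a fold enrichment of 4.94 lay 5.21 kb upstream. Its summit sequence is shown because it holds TGTTTGC, 1 of the 2 letter patterns searched for the forkhead family, to which Foxo1 belongs. The pattern is in capitals in the 101 bases around the summit, chr11:101223616-101223716, plus strand.
G6pc upstream CNC: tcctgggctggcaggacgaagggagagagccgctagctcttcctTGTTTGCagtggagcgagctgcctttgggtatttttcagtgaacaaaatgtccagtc
The same letters also occurred 14 to 20 bases past the G6pc start, and in 4.69% of all promoters. A match gives letters in the sequence, not binding of a factor.

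Fbp1 encodes fructose-1,6-bisphosphatase of liver, which acts opposite to phosphofructokinase. It spans chr13:62966113-62989642 on the minus strand, with 8 CTCF peaks (5 CAC and 3 Lone CTCF) and 8 Rad21 peaks (3 CNC) in its window. The strongest peaks of both lists were a CAC site 31.5 kb upstream of the 5′ end, with fold enrichments of 20.6 for CTCF and 18.2 for Rad21. On the other side, 33.4 kb past the 5′ end, a CAC site with a CTCF fold enrichment of 11.3 lay in an intron of Fbp2, the muscle form of the enzyme. The motifs of these sites, 64.9 kb apart, pointed away from Fbp1 and enclosed it with Gm17367. A stronger CAC site lay nearer, 31.8 kb past the 5′ end and also in an intron of Fbp2 (CTCF fold enrichment 15.4). No motif was called at its CTCF summit, but a minus-strand match was called at its Rad21 summit. At the start, the CTCF and Rad21 summits were 3 bp apart, with fold enrichments of 3.33 and 3.36, and a CNC peak of 3.21 lay 918 bp upstream.

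The Fbp1 window also held the strongest CNC peak of all 9 windows, named here after its value was seen. It lay 20.1 kb upstream, was 970 bp wide and had a fold enrichment of 7.92, beside a median of 3.32 over the 37 CNC peaks of the windows. The 101 bases around its summit, chr13:63009658-63009758, are shown on the plus strand, with TGACG in capitals.
Fbp1 upstream CNC: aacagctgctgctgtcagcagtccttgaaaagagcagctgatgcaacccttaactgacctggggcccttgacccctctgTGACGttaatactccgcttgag

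Pcx encodes pyruvate carboxylase, the mitochondrial enzyme that makes oxaloacetate. The gene, at chr19:4510472-4621752 on the plus strand, is long, and its 211 kb window held 25 CTCF peaks (20 CAC and 5 Lone CTCF) and 28 Rad21 peaks (9 CNC), with 33 of these 53 peaks having summits inside the gene. Its peak density lay at the percentile 91.3 of all genes for CTCF and 96.4 for Rad21. The strongest peaks were a CAC site 12.8 kb upstream in an intron of 2010003K11Rik, with fold enrichments of 22.6 for CTCF and 21.2 for Rad21. Another plus-strand motif site lay 22.7 kb past the 3′ end (CTCF fold enrichment 16.2). The region of 147 kb between them held Pcx, Lrfn4 and Rce1.

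The annotation gives Pcx distant starts, and Rad21 peaks were called at both. At the upstream start a Rad21 peak 1897 bp wide (fold enrichment 5.57) spanned a pair of CTCF peaks with fold enrichments of 3.98 and 4.27. At the start at position 4594319, deep inside the gene, a CNC peak of 2.96 had its summit 54 bp upstream and no CTCF peak was called. This CNC peak was lost with a −log10 q of at least 10 and with a minimum fold enrichment of 5. A total of 7 of the 9 CNC peaks lay within the gene, with fold enrichments between 2.74 and 4.30. The E-box letters CACGTG, a pattern bound by many basic helix-loop-helix factors, were found 248 bases before the upstream start and in 7.78% of all promoters.

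Tat encodes tyrosine aminotransferase, a glucocorticoid-induced enzyme that feeds amino acid carbon into glucose production. It spans chr8:112514337-112523703 on the plus strand, with 9 CTCF peaks (6 CAC and 3 Lone CTCF) and 10 Rad21 peaks (4 CNC) in its window, none of them with a summit inside the gene. Convergent motif sites lay 21.5 kb upstream of the start (CTCF fold enrichment 11.8) and 3.36 kb past the 3′ end (15.8). At 34.2 kb apart they formed the shortest such span of the 5 genes, and Tat was the only protein-coding gene wholly within it. The strongest CTCF peak of the window was a CAC site 28.2 kb upstream at the start of Marveld3, with a fold enrichment of 24.9 (percentile 98.1 of the CTCF list). The strongest Rad21 peak was at a CAC site without a called motif 20.6 kb past the start, with 13.9.

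Near the start of Tat the CTCF list held a Lone CTCF peak and the Rad21 list held none. This peak had a fold enrichment of 7.83, its summit lay 1024 bp upstream, with its edge within 1 kb, and it carried no called motif. Tat was the single member with a CTCF peak but no Rad21 peak at a TSS, 1 of 9, beside 3.66% of all genes. With a minimum fold enrichment of 5 this held for 3 of 9, Tat, Foxo1 and Pklr, beside 10.5% of all genes. Unlike Tat, Foxo1 and Pklr had called Rad21 peaks that overlapped their start-site CTCF peaks. With 4.46 and 3.20, these fell below that cutoff. All 4 CNC peaks lay upstream, 4.08 to 17.2 kb from the start, between the upstream motif site and the gene, with fold enrichments of 2.85 to 3.29. None was kept with a −log10 q of at least 10 or with a minimum fold enrichment of 5.

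Ppargc1a encodes PGC-1 alpha, a coactivator induced in liver by fasting. It spans chr5:51845488-51958964 on the minus strand and had the lowest peak density of the 9 in both lists, with 4.22 CTCF peaks per 100 kb (percentile 41.5 of all genes) and 5.15 Rad21 peaks (percentile 52.5). Its window held 9 CTCF peaks (7 CAC and 2 Lone CTCF), 11 Rad21 peaks (5 CNC) and no other protein-coding gene. No motif-bearing CAC peak lay on either side of the gene within the window. The strongest CTCF peak, 22.0 kb past the 5′ end in an intron, had a fold enrichment of 8.35, and it was the weakest such maximum of the 9 windows. The strongest Rad21 peak, 56.1 kb past the 5′ end and also intronic, had 10.5.

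The annotation gives Ppargc1a distant starts, near 51958964 and at 51945160, and the start-site peaks lay at the latter. A CNC peak of 3.35 had its summit 81 bp past the start at 51945160, and a CAC site with fold enrichments of 4.27 for CTCF and 4.01 for Rad21 followed, with summits 1067 and 1388 bp past it. The start near 51958964 had no peak of either list within 1 kb. Of the CNC peaks inside the gene, the strongest, named after its value was seen, lay 39.8 kb past the 5′ end with a fold enrichment of 6.02.

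Foxo1 encodes the forkhead factor that insulin signalling excludes from the nucleus. It spans chr3:52072259-52154031 on the plus strand, and its window held 12 CTCF peaks, split evenly into 6 CAC and 6 Lone CTCF peaks, and 10 Rad21 peaks (4 CNC). This was the largest number of Lone CTCF peaks, which numbered 1 to 5 in the other windows. The rank was lost with a −log10 q of at least 10. Foxo1 then kept 7 CTCF peaks, 5 of them CAC, against 17 in the Pcx window, 10 of them CAC. All 4 motif-bearing CAC peaks lay upstream of the gene, at 5.74, 10.5, 14.2 and 25.7 kb from the start, and none lay downstream within the window. The nearest of them was the strongest CTCF peak of the window, with fold enrichments of 16.1 for CTCF and 16.6 for Rad21 and summits 1 bp apart. The strongest Rad21 peak, with 17.3, was at the most distant of them, 25.7 kb upstream. The CTCF peak at the start, 1042 bp wide with a fold enrichment of 7.82 and its summit in the 5′ untranslated region, was stronger than those of the other members except Tat. The Rad21 peak paired with it had 4.46, and a CNC peak of 2.48 lay 492 bp upstream.

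Slc2a2 encodes GLUT2, the glucose transporter of hepatocytes. It spans chr3:28596825-28627278 on the plus strand, and its window was the one with most CNC peaks for its length, with 6 CNC peaks among 12 Rad21 peaks (4.60 per 100 kb, percentile 96.5 of all genes). It held 8 CTCF peaks, 6 CAC and 2 Lone CTCF. The rank for CNC peaks rested on the peak threshold. With a −log10 q of at least 10 the Slc2a2 window kept 2 CNC peaks, against 4 at Fbp1 and 3 at G6pc, whose windows are shorter. With a minimum fold enrichment of 5 it kept 0. Of the 6 CNC peaks, 4 lay inside the gene, 7.93 to 27.5 kb past the start, with fold enrichments between 3.33 and 4.77. The strongest peaks of any of the 9 windows lay downstream of Slc2a2, at a minus-strand motif site 17.9 kb past the 3′ end in an intron of 1700112D23Rik. Its fold enrichment was 28.4 for CTCF (percentile 99.6) and 24.7 for Rad21 (percentile 99.0). No motif-bearing CAC peak lay upstream within the window.

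At the Slc2a2 start the Rad21 list held a CNC peak with a fold enrichment of 2.73 and its summit 149 bp upstream, and the CTCF list held no peak within 1 kb. It was the single member with a Rad21 peak but no CTCF peak at a TSS, 1 of 9, beside 3.23% of all genes. The peak is weak, at percentile 5.51 of its list. With a −log10 q of at least 10 it was not kept, and Pck1 and Fbp1 then had a Rad21 peak without a CTCF peak at a TSS (2 of 9, beside 3.9% of all genes). Within 2500 bp of its start Slc2a2 also had a CAC peak. The promoter is shown because the summit falls in it. It comprises the 250 bases before the start, chr3:28596575-28596824, plus strand, and none of the 8 letter patterns searched occurs in it.
Slc2a2 promoter: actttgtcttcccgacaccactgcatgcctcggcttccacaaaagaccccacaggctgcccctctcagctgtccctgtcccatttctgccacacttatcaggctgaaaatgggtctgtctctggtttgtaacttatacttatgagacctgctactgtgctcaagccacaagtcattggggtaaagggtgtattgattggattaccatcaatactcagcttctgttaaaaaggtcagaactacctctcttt

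Pklr encodes the pyruvate kinase of liver and red blood cells, the glycolytic step that gluconeogenesis bypasses. It spans chr3:88940064-88950706 on the plus strand in a gene-dense region with 6 other protein-coding genes in the window, and 14 of its 34 peaks lay within 1 kb of the TSS of another gene. Peak density was the highest of the 9 windows, with 15.4 peaks per 100 kb in each list (percentiles 98.2 for CTCF and 98.9 for Rad21). Of 17 CTCF peaks 16 were CAC and 1 was Lone CTCF, and of 17 Rad21 peaks 2 were CNC. The strongest CTCF peak, with a fold enrichment of 16.96, lay in the untranslated region of Hcn3, 50 bp from a start of that gene. The strongest Rad21 peak (15.1) lay 60.7 kb past the 5′ end. The nearest motif-bearing CAC peak upstream, in an intron of Fdps, was weak, with a CTCF fold enrichment of 3.04, and there was none downstream within the window. The CNC peak nearest to a start of Pklr lay 14.2 kb upstream, with a Rad21 fold enrichment of 2.99.

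Pklr was the single member whose start-site CTCF peak carried a CTCF motif, 1 of 9, beside 10.2% of all genes. The gene is known for an upstream start that gives the red cell form and a downstream start that gives the liver form. The CAC site lay in an intron of the upstream transcript, 117 bp past the nearest start of a protein-coding transcript, with fold enrichments of 5.04 for CTCF and 3.20 for Rad21 and summits 11 bp apart. The match scored 14.97 bits and pointed in the direction of transcription. It is shown with the 20 bp match in capitals, chr3:88940600-88940619, plus strand.
Pklr start-site motif: ggtttCCCCCACAAGGGGGCAGGCAgggga

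Start sites were thus occupied but weakly so. A CTCF peak lay within 1 kb of a TSS at 8 of the 9 genes (all but Slc2a2), beside 53.7% of all protein-coding genes, and a Rad21 peak at 8 of the 9 (all but Tat), beside 53.3%. The 9 CTCF peaks at these sites had a median fold enrichment of 4.27 (2.68 to 7.83), against 5.22 over the 14375 such peaks of all genes. The 12 Rad21 peaks had a median of 3.28 (2.48 to 5.57), against 4.56. Because they are weak, the counts rest on the peak threshold of the authors. With peaks of a fold enrichment of at least 5, a CTCF peak at a TSS remained at Tat, Foxo1 and Pklr (3 of 9, beside 36.1% of all genes at that threshold), and a Rad21 peak at Pck1 and Pcx (2 of 9, beside 30.3%). With a −log10 q of at least 10, a CTCF peak remained at 5 of 9, beside 46.7% of all genes.

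**Figure D3:**
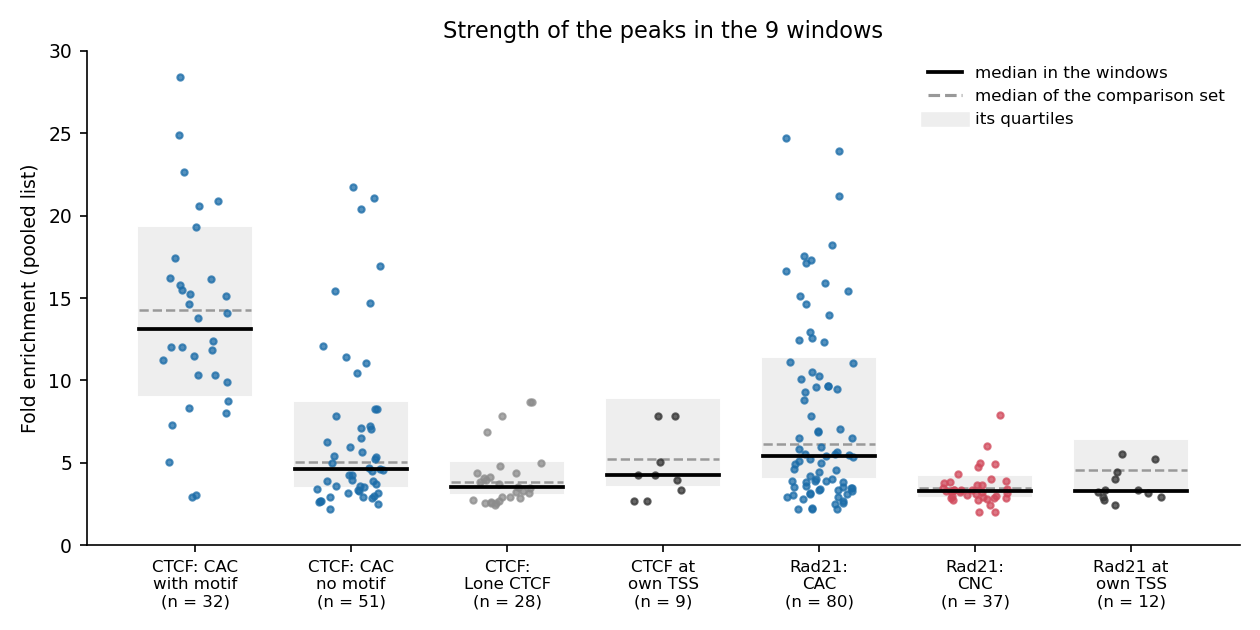
Points are the fold enrichments of the peaks in the 9 windows by kind, with the median in black, and the dashed line and grey box give the median and quartiles of the same kind over the autosomal list (for start sites, over all protein-coding genes). CAC peaks with a motif had a median of 13.1 and those without 4.65, and no peak at a start site of the 9 genes exceeded 7.83.

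Strength followed the motif in the windows as it did in the list. The 32 CAC peaks with a motif had a median CTCF fold enrichment of 13.1 (quartiles 10.2 to 16.2), the 51 without a motif 4.65 (3.38 to 7.54), and the 28 Lone CTCF peaks 3.52 (2.82 to 4.40). Over the autosomal list the medians were 14.3, 5.03 and 3.85. The summits of the factors also lay closer together where there was a motif, 24 bp apart at the median of 32 sites, against 73 bp at the 51 without. Over the list the medians were 24 and 51 bp. At motif sites the Rad21 summit lay on the 3′ side of the CTCF summit along the motif strand in 24 of 32 cases. Over the list this held in 16645 of 22840 cases. The median offset towards the 3′ side, taken over all cases on either side, was 17.5 bp in the windows and 17 bp over the list. At the start sites of the 9 genes the CTCF and Rad21 summits of CAC peaks were farther apart, with a median of 192 bp over 8 peaks and more than 100 bp in 6 of them. Over the 12383 CAC peaks at start sites of all genes the median was 54 bp, and 34.3% exceeded 100 bp. The Fbp1 and Pklr start sites, with gaps of 3 and 11 bp, were the 2 exceptions. Both Pcx peaks were measured to the same Rad21 summit. Only the Pklr peak of the 8 carried a motif, whereas the start-site peaks of all genes were taken with or without one.

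The 37 CNC peaks of the windows had a median fold enrichment of 3.32 (2.02 to 7.92), beside 3.48 over the autosomal list. Of these, 19 lay in introns (51.4%, beside 52.3% of all autosomal CNC peaks), 17 between genes (45.9%, beside 39.4%) and 7 within 1 kb of a protein-coding TSS (18.9%, beside 12.6%). The letters TGTTTGC of the forkhead family occurred within 100 bp of the summit of 7 of them (18.9%), beside 7.32% of 17866 autosomal CNC peaks, while the other forkhead pattern, TGTTTAC, occurred in none (4.75% of all). CACGTG was found at 5 (13.5%, against 3.68%), TGACG at 5 (13.5%, against 8.59%), TTGCNNAA, the C/EBP pattern, at 6 (16.2%, against 12.9%) and TGTTCT, a half-site of the glucocorticoid receptor, at 8 (21.6%, against 16.8%). TGACGTCA and CAAAGTCCA, a pattern of HNF4 alpha, occurred at none of the 37, but they were rare among all autosomal CNC peaks too (0.218% and 1.49%). All patterns were searched on both strands, and TGACG is part of TGACGTCA. These are descriptions of 37 sequences, several of them from the same gene, with no test.

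Other genes of the pathway were described from 3 lists, in which 57 of 58 genes were matched on autosomes. A CTCF peak lay at a TSS of 48 of the 57 genes (53.7% of all genes), and a Rad21 peak at 51 (53.3%). With a minimum fold enrichment of 5 these counts fell to 27 (36.1% of all genes) and 24 (30.3%). The strength of these peaks differed between the lists. Among 22 other gluconeogenic and glycolytic enzymes, 15 had a CTCF peak at a TSS, with a median of 4.41 for the strongest peak of each gene, near the median of 4.27 for the 9 genes. Of these enzymes, Got2 and Pfkl alone reached a fold enrichment of 10, with 23.9 and 18.3. All 14 genes of hormone and nutrient signalling had a CTCF peak at a TSS, with a median of 11.6, and 9 of them reached 10 (beside 28.0% of all genes with such a peak), among them Prkaa1, a catalytic subunit of the energy sensor AMPK, with 20.2 and Irs2, an insulin receptor substrate, with 14.8. Of 21 transcriptional regulators, 19 had a CTCF peak at a TSS, with a median of 9.08, and 8 of them reached 10. Of these, Sirt1, a deacetylase of PGC-1 alpha, had 20.03. For comparison, the median over all genes with such a peak was 6.41. The Rad21 medians were lowest for the 9 genes and the other enzymes and highest for the signalling genes, as for CTCF, but the regulators lay below all genes, with 3.69 for the 9 genes, 3.93 for the enzymes, 7.76 for signalling genes, 4.87 for regulators and 5.37 for all genes.

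**Figure D4:**
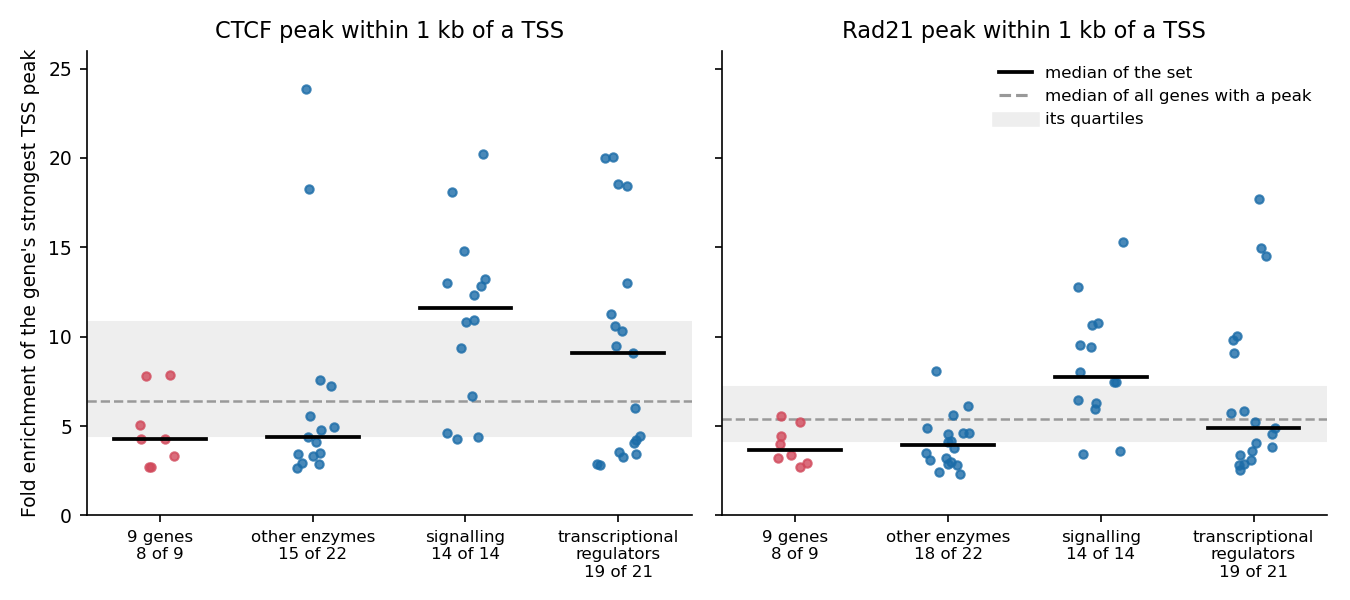
Points are genes, placed by the fold enrichment of their strongest peak within 1 kb of a TSS in the CTCF list (left) and the Rad21 list (right), with the number of genes that had such a peak under each set. Black lines are medians, and the dashed line and grey band are the median and quartiles over all protein-coding genes with a peak. The 9 genes and the other enzymes lie low in both panels, with CTCF medians of 4.27 and 4.41, and the signalling genes lie highest, with 11.6.

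Start sites with cohesin but without CTCF, as at Slc2a2, were found at 5 of the 22 other enzymes, and at 0 of the 14 signalling genes and 0 of the 21 regulators, beside 3.23% of all genes. At that background share a count of 0 in lists of this size is no result. Among these enzymes were Tpi1, the triose phosphate isomerase, with a Rad21 fold enrichment of 3.22, and Gpd1, the glycerol-3-phosphate dehydrogenase of the cytosol, with 2.83. The reverse, as at Tat, was found at 2 of the 57 genes, Pck2 and Got1, near the 3.66% of all genes, with CTCF fold enrichments of 2.94 and 3.41. Motif-bearing CAC peaks lay on both sides of 30 of the 57 genes (38.6% of all genes), with convergent motifs at 7 (10.4% of all genes, near their share here), and 13 of the 57 had a motif in a CTCF peak at a TSS (10.2% of all genes).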

How the data were processed

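The data used here were 2 deposited peak lists of female mouse liver, for CTCF and for Rad21. Reads were aligned by the authors to mm9 with Bowtie2, unique reads were kept, libraries of an antibody were pooled, and MACS2 peaks were called and filtered against a blacklist and against peaks of identical reads. The columns used were, for each deposited peak, its fold enrichment (a ratio), the −log10 of its q-value and its summit. A deposited score was not needed.

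Peaks were joined to gene spans of GENCODE annotation on NCBIM37, and 0 peaks lay beyond the chromosome ends of that build. Sequence was read with pysam 0.24.0 and samtools 1.23.1. The CTCF matrix was learned from the 1000 strongest CTCF peaks on chromosomes 1, 7, 9, 15 and 17, and its threshold was set on 36912 windows 1000 bp from summits on chromosomes 4, 6, 10, 12, 14 and 16. Shares of peaks with a motif over the list leave out the former chromosomes, while strengths, summit gaps and inner letters of motif-bearing peaks over the list include them. A peak was at a TSS when it reached within 1 kb of the start of any protein-coding transcript of the gene. The X chromosome was left out of gene counts, and with it 1 listed gene. Overlap and motif steps were tested on simulated data. Plots used matplotlib 3.10.9.

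Described peaks of each gene were the strongest of each list, all at a TSS, the CNC peak nearest a TSS, and the nearest motif-bearing CAC peak on each side. The 9 genes and the lists of other genes were chosen with earlier results of these data known. With pooled lists no test was run. Alternatives tried were other windows, peak thresholds, overlaps, TSS distances and motif settings. Values of some listed genes are not reported here. Male samples were not analysed here.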

Additional observations from a re-analysis of the deposited data

How the results depend on the processing

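Of 50 alternatives of the counts and shares over the 9 genes, 31 stayed within 1.5 times the value above, or within its interval for the motif share. With windows of 20 kb, CAC peaks numbered 53 and 0 genes had motif sites on both sides. With a −log10 q of at least 10, Rad21 peaks numbered 73, CAC 54 and CNC 20, a CTCF peak lay at a TSS of 5 genes, and the motif share of CAC peaks was 53.7%. With a fold enrichment of at least 5, there were 57 CTCF and 47 Rad21 peaks, 43 CAC, 14 Lone CTCF and 4 CNC, start-site peaks at 3 genes for CTCF and 2 for Rad21, and a motif share of 60.5%. Both thresholds keep fewer peaks by construction. With summits required within 100 bp, there were 53 Lone CTCF and 59 CNC peaks and the motif share was 51.7%. At a 5% motif rate the share was 65.1%. The convergent motifs at G6pc and Tat were called under every alternative for classes, thresholds and motifs that was run, but not with windows of 20 kb, and Pklr joined them with windows of 100 kb and at the 5% motif rate, for 3 genes in place of 2. Of 188 alternatives of counts for single genes and for the other pathway genes, 109 stayed within 1.5 times and 68 of the 79 that did not were lower. No paired analysis was possible because the peak lists used here are pooled over libraries, and for the same reason no library was left out.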

Other observations

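The motif matches in the windows were compared with each other after their sequences were seen. At positions 4 to 15 of the 20 bp match, counted from its 5′ end, 2 strings of letters were most frequent among the 42 motif-bearing CTCF peaks, with 5 matches each, CCAGAAGAGGGC and CCAGCAGAGGGC. The former occurred in 3 of 10 Lone CTCF peaks (Wilson interval 10.8 to 60.3%), in the Pck1 and Pcx windows, and in 2 of 32 CAC peaks (6.25%, 1.73 to 20.1%), both in the Pcx window. Over the autosomal list the former made up 3207 of 7197 matches in Lone CTCF peaks (44.6%, 43.4 to 45.7%) and 2685 of 22840 in CAC peaks (11.8%, 11.3 to 12.2%). The latter occurred in 5 of 32 CAC peaks (15.6%, 6.86 to 31.8%), in the Pck1, Pcx and Tat windows, and in 0 of 10 Lone CTCF peaks (upper limit 27.8%). Over the autosomal list it made up 820 of 22840 matches in CAC peaks (3.59%) and 218 of 7197 in Lone CTCF peaks (3.03%). In mouse, CTCF motifs are known to have spread with B2 repeats, and whether these matches lie in such repeats was not tested.
The Lone CTCF peaks of the Pck1 and Pcx windows that held the former are shown on the motif strand with the 20 bp match in capitals.
Pck1, chr2:172939500-172939519, minus strand: catagTGGCCAGAAGAGGGCATCAGacccc
Pck1, chr2:173001390-173001409, plus strand: tggggCAGCCAGAAGAGGGCGCCATatcct
Pcx, chr19:4573437-4573456, minus strand: ctgcaTGGCCAGAAGAGGGCACCAGacctc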
